A study of Mus musculus with 14 samples.

Results

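S100a9, Lcn2, Ltf and Hdc encode products of granulocytes, and their transcripts were followed here in the spleens of 2 inbred mouse strains. They are the genes whose probes carry one of these names as the only symbol in the array's annotation. Each had 1 probe, so the account covers 4 of 6288 named genes and 4 of 14612 measured probes. Spleen RNA of AcB55 mice (6 arrays) and of AcB61 mice (8 arrays) was hybridised to cDNA arrays with 2 channels, each time together with A/J spleen RNA. Both are recombinant congenic lines, bred from A/J with part of the genome taken from C57BL/6, and malaria resistance is the series' title. The labels name no transgene, treatment, time point or infection, and do not give the sex or age of the mice, whether RNA was pooled, or which arrays shared a mouse or an A/J extract. Nor do they say which C57BL/6 segments each line holds.

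S100a9 forms with S100a8 the calcium-binding complex calprotectin of neutrophils, which withholds zinc and manganese from microbes. Lcn2 encodes lipocalin 2, which captures the siderophores with which bacteria collect iron, and Ltf encodes lactoferrin, which binds iron itself. Both are stored in the specific granules of neutrophils, and Lcn2 is also made by macrophages and epithelia. Hdc encodes histidine decarboxylase, the enzyme that makes histamine, in mast cells, basophils and immature myeloid cells. The mouse spleen makes blood cells in adult life too, granulocytes among them.

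The sequences around the starts of the 4 genes are shown because the genes did not move together. They come from RefSeq on the assembly GRCm38.p6 of C57BL/6J, all 4 genes were found there, and each runs 5′ to 3′ on the strand of its gene from 250 bases before to 50 bases after the annotated start. The windows are chr3:90695672-90695971 for S100a9 (minus strand), chr2:32387690-32387989 for Lcn2 (minus strand), chr9:111019042-111019341 for Ltf (plus strand) and chr2:126618629-126618928 for Hdc (minus strand). Capitals mark matches, on either strand, to the letters of 5 motifs.
S100a9: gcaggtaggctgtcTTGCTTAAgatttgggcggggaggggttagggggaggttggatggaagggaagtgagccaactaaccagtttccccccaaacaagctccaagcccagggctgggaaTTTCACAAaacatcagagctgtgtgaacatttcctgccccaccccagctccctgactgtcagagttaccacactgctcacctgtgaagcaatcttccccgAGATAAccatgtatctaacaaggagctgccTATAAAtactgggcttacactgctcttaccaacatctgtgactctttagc
Lcn2: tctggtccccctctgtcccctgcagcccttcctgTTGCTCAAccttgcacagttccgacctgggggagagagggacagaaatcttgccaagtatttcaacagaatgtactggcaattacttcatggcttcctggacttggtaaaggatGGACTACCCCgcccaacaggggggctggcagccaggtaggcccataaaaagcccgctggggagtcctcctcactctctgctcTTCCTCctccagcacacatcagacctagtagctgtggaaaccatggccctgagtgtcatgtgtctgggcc
Ltf: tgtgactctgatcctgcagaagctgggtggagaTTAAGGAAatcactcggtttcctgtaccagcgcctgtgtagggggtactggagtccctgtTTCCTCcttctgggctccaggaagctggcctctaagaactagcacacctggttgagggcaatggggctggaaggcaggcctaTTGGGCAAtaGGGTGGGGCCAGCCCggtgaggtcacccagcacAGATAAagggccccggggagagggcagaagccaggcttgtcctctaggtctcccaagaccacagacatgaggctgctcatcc
Hdc: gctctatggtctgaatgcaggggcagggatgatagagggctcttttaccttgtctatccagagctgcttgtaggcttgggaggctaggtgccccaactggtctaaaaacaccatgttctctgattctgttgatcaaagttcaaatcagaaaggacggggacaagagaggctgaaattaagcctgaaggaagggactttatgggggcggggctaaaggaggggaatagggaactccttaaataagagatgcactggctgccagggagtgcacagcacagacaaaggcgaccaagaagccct

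The motif of the C/EBP factors, searched as TTNNGNAA, was found at 2 places in the S100a9 window, 1 in Lcn2, 2 in Ltf and 0 in Hdc, and 40.7% of 32851 RefSeq windows of this length hold it. The letters GAGGAA of PU.1 were found at 1 place in each of Lcn2 and Ltf and in 28.3% of all windows. The NF-kappa-B motif, GGG and CC with 5 bases of any kind between, had 1 match in Lcn2 and 4 matches in Ltf. The matches in Ltf overlap each other, with 1 stretch counted on both strands, and 50.8% of windows hold the motif. The letters AGATAA of GATA factors were found at 1 place in each of S100a9 and Ltf (11.2% of windows). TATAAA, the letters of the TATA box, was found at 1 place in S100a9 (13.6% of windows). That match begins at position 1, the annotated start itself, and whether it serves as a TATA box was not tested. The Hdc window held none of these 5 strings. These matches describe the C57BL/6J sequence. The A/J sequence was not used here.

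Values below are log2 ratios, strain over A/J, so that 1 stands for a doubling, given as mean ± SD over the 6 arrays of AcB55 or the 8 of AcB61, with n stated where an array had no value. No source used here states the log base or the dyes. Positive values likely mean higher in the strain, since on each array the labels list the strain under channel 1 and A/J under channel 2. A ratio holds no level, so whether a gene was abundant, and whether the tissue's defining markers were present, cannot be read from it. Arrays are named by strain and order of deposit, which gives them no further meaning. No array compared A/J with itself, so p-values reflect only how much arrays varied, perhaps for technical reasons, and not how much A/J mice did. The number of arrays limits the precision.

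Some arrays stood apart over the whole array, measured as Pearson's r over 11693 features with values on all. AcB61 replicates 2, 6 and 8 correlated with one another at 0.787 to 0.830, and replicates 3, 5 and 7 at 0.703 to 0.787, but between these sets r lay between -0.0928 and 0.149. In AcB55, replicates 1 and 2 correlated with the AcB61 arrays at a median of 0.407, against 0.161 for replicates 3 to 6. Results are therefore also given without AcB55 replicates 1 and 2 and without each AcB61 set. These sets were chosen with the values known.

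S100a9 was higher than A/J on every AcB61 array. Its ratios there ran from 0.73 on replicate 5 through a median of 0.98 to 1.72 on replicate 6. Neither end came near 0, and a single sign on all arrays was seen for 14.2% of all 13045 features in AcB61. In AcB55 S100a9 read 1.48 and 1.94 on replicates 1 and 2, then 0.26, 0.022, -0.081 and -0.096 on replicates 3 to 6. The AcB55 arrays thus fell into 2 high ones, within or above the AcB61 range, and 4 that lay below every AcB61 array. In these bulk samples, fewer cells of a type and less RNA per cell cannot be told apart.

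Lcn2, the siderophore-binding protein, had the same arrangement. In AcB61 it ran from 0.52 through a median of 0.85 to 1.57, above 0 on every array. The 3 highest values were on replicates 2, 6 and 8 (1.53, 1.31 and 1.57), and the 3 lowest on replicates 3, 5 and 7 (0.55, 0.52 and 0.64), the sets that stood apart over the whole array. In AcB55 it read 1.47 and 1.89 on replicates 1 and 2 and 0.29, 0.25, -0.0086 and 0.018 on replicates 3 to 6. The 4 low AcB55 arrays again lay below every AcB61 array.

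Ltf, lactoferrin, shared the 2 high AcB55 arrays but not the steady rise in AcB61. In AcB55 it read 1.20 and 1.51 on replicates 1 and 2, and 0.049, 0.046, 0.070 and -0.090 on replicates 3 to 6. In AcB61 it read 0.0079, -0.070 and -0.065 on replicates 1, 5 and 7, and 0.40 to 0.77 on the other 5 arrays. Its highest AcB61 array was replicate 3, which belongs to the set where Lcn2 was lowest. AcB55 replicates 1 and 2 lay above every AcB61 array for Ltf.

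Hdc moved the other way and less. In AcB61 its ratio was below 0 on every array, from -0.62 on replicate 6 through a median of -0.25 to -0.055 on replicate 4. Replicates 6, 8 and 2 were the lowest (-0.62, -0.53 and -0.36). In AcB55 the 6 values lay between -0.092 and 0.044, and replicates 1 and 2, at 0.044 and -0.092, did not stand apart from the rest. A single sign on every AcB55 array was seen for 23.8% of all features and for none of the 4 genes.

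**Figure D1:**
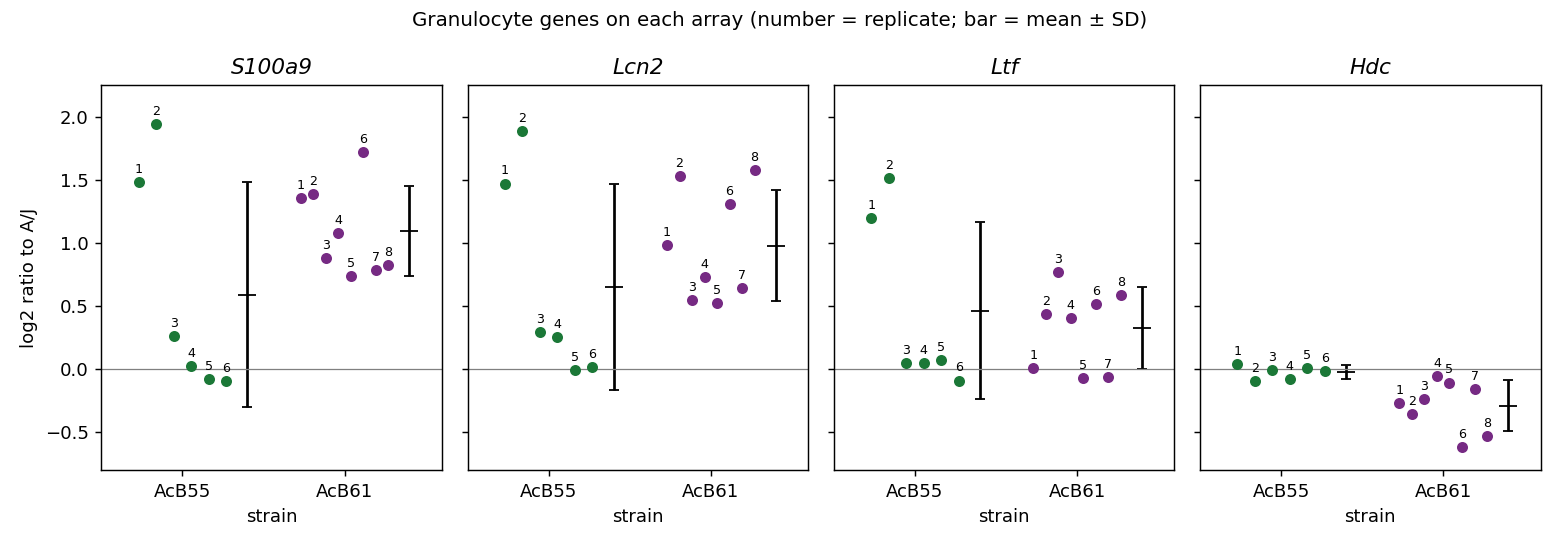
Log2 ratio to A/J (vertical axis) of S100a9, Lcn2, Ltf and Hdc on each AcB55 array (green, n = 6) and AcB61 array (purple, n = 8), numbered by replicate, with the mean and SD as a bar beside each strain. AcB55 replicates 1 and 2 are high for S100a9, Lcn2 and Ltf and not for Hdc, and every AcB61 array is above 0 for S100a9 and Lcn2 and below 0 for Hdc.

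The spread of these genes was among the widest of AcB55. S100a9 had the 7th largest SD of 13045 features there (0.89), Lcn2 the 16th (0.82) and Ltf the 32nd (0.70), against a median SD of 0.147 over all features. The SD of Hdc in AcB55 (0.054) ranked 12813th, near the bottom. In AcB61 the SDs of S100a9 (0.36), Lcn2 (0.44) and Ltf (0.32) were lower than in AcB55 and that of Hdc (0.20) was higher, beside a median of 0.168 over all features. Whether the SDs differ between strains was not tested.

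The first comparison set AcB61 against A/J, with limma over all features and Benjamini-Hochberg adjustment. S100a9 rose to 1.10 ± 0.36 (SE 0.188, 95% interval 0.70 to 1.49), a ratio of 2.14-fold, with an adjusted p of 0.000421, and it had the 4th highest mean of all 13045 features. Lcn2 rose to 0.98 ± 0.44 (interval 0.59 to 1.37), 1.97-fold, with an adjusted p of 0.000897, and had the 11th highest mean. Hdc fell to -0.29 ± 0.20 (interval -0.41 to -0.17), 0.818 of the A/J level, with an adjusted p of 0.00119. Ltf, at 0.32 ± 0.32 (interval 0.0021 to 0.65), did not pass the threshold of 0.05 on the adjusted p (0.143).

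In AcB61, then, 2 of the 4 genes were called higher and 1 lower. Over all features 23.8% were called, 10.5% higher and 13.3% lower. The exact sign-flip test over arrays gave a two-sided p of 0.00781, the smallest that 8 arrays allow, for each of S100a9, Lcn2 and Hdc, and 0.0547 for Ltf. The calls of S100a9, Lcn2 and Hdc held in 28 of 28 alternatives, with an adjusted p of at most 0.00530, 0.0240 and 0.0267. Several of these could not change the AcB61 means, such as leaving out AcB55 arrays or summarising probes of genes with 1 probe. Without replicates 2, 6 and 8 the mean of Hdc fell in size to -0.16 (adjusted p = 0.0267 in the limma fit) and that of Lcn2 to 0.68 (0.0240). Ltf passed without AcB55 replicates 1 and 2, which share the estimate of the spread, at the same mean of 0.32 (limma adjusted p = 0.0113).

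The second comparison set AcB55 against A/J. Lcn2 rose to 0.65 ± 0.82 (SE 0.212, interval 0.21 to 1.10), 1.57-fold, and its limma adjusted p of 0.0353 passed the threshold. S100a9 at 0.59 ± 0.89 (interval 0.13 to 1.04) and Ltf at 0.46 ± 0.70 (interval 0.092 to 0.84) did not pass, with adjusted p of 0.0644 and 0.0739 from limma. Hdc read -0.022 ± 0.054 (interval -0.16 to 0.11, limma adjusted p = 0.879). So 1 of 4 genes was called, higher, where 20.7% of all features were called, 9.77% higher and 10.9% lower.

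The AcB55 means rested on replicates 1 and 2. Without both, the mean was 0.14 for Lcn2 (limma adjusted p = 0.652), 0.027 for S100a9 (0.932) and 0.019 for Ltf (0.948). Leaving out replicate 1 or replicate 2 alone also ended the call of Lcn2, at 0.49 (limma adjusted p = 0.147) and 0.41 (0.163). S100a9 passed without any one of replicates 4, 5 and 6, at 0.70 to 0.73 (limma adjusted p = 0.0495, 0.0414 and 0.0408). The exact sign-flip test over the 6 arrays gave a two-sided p of 0.0625 for Lcn2, 0.219 for S100a9, 0.156 for Ltf and 0.375 for Hdc, where 0.0312 is the smallest it can give.

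The third comparison asked whether the strains differed from each other, as AcB61 minus AcB55. None of the 4 differences passed at an adjusted p of 0.05 in the limma fit, where 12.3% of all features did (5.29% higher in AcB61 and 6.98% lower), although 1 of the 4, Hdc, had an unadjusted p under 0.05. Hdc was lower in AcB61 by -0.27 (interval -0.45 to -0.087) at an adjusted p of 0.05001 and an exact permutation of the strain labels gave an unadjusted p of 0.00666, against 0.165 to 0.627 for the other 3 genes. For S100a9 the difference was 0.51 (interval -0.097 to 1.11, limma adjusted p = 0.265), for Lcn2 0.33 (interval -0.26 to 0.92, 0.487) and for Ltf -0.14 (interval -0.63 to 0.35, 0.745). Of the 4 genes, 0 had strain ranges that did not overlap, against 2.67% of all features.

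AcB55 replicates 1 and 2 bore on this comparison as well. Without them, S100a9 was higher in AcB61 than in AcB55 by 1.07 (limma adjusted p = 0.000925) and Lcn2 by 0.84 (0.00987). The difference of Ltf turned to 0.31 (0.180) and that of Hdc stayed at -0.27 (0.0886). Without replicate 2 alone the difference of S100a9 was 0.78 (limma adjusted p = 0.0380). Hdc passed in 6 of 27 alternatives, with adjusted p between 0.0143 and 0.166 over all of them. Among them were the fits without AcB61 replicate 4, 5 or 7 (limma adjusted p = 0.0377, 0.0371 and 0.0447), and without AcB61 replicates 2, 6 and 8 its difference was -0.14 (0.166).

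**Figure D2:**
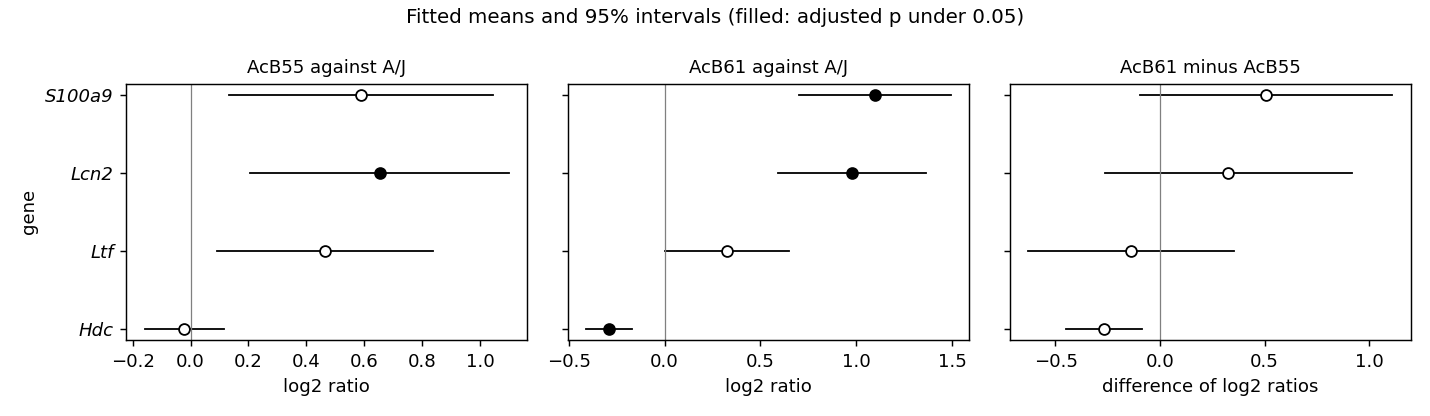
Fitted mean log2 ratio to A/J in AcB55 and in AcB61, and AcB61 minus AcB55, for each gene, with 95% intervals as lines; each panel has its own horizontal scale. Filled points (Lcn2 in both strains, S100a9 and Hdc in AcB61) have an adjusted p under 0.05, and the 3rd panel has none.

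**Figure D3:**
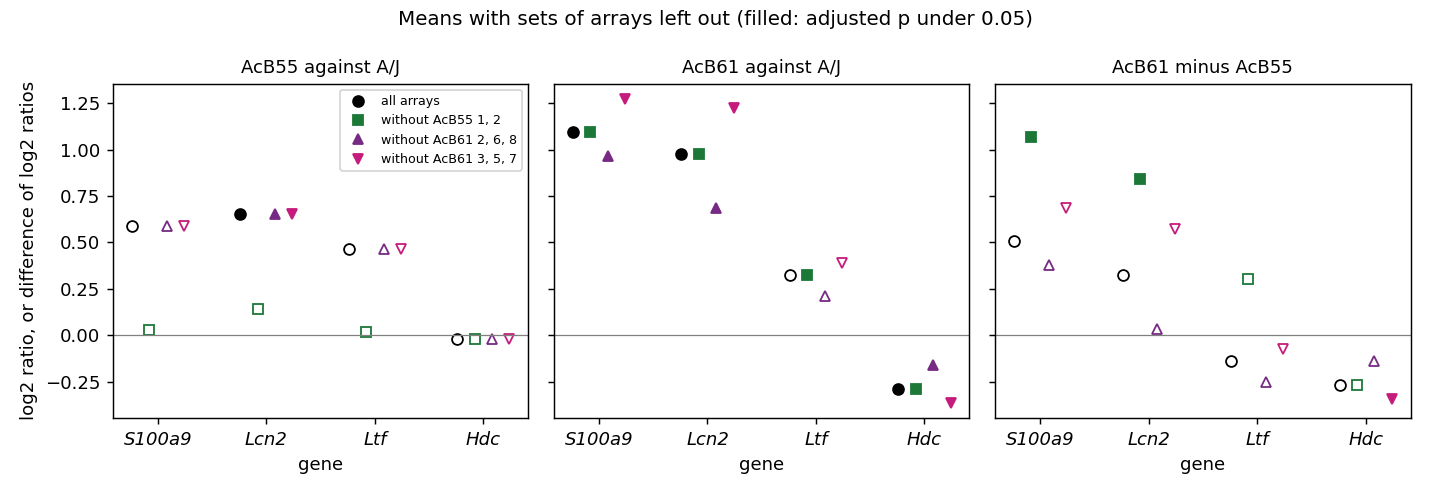
Mean log2 ratio to A/J, or the difference of means (vertical axis), for each gene with all arrays (black circles), without AcB55 replicates 1 and 2 (green squares), without AcB61 replicates 2, 6 and 8 (upward triangles) and without AcB61 replicates 3, 5 and 7 (downward triangles), filled where the adjusted p is under 0.05. S100a9, Lcn2 and Ltf lie between 0.019 and 0.14 in AcB55 once replicates 1 and 2 are left out, and S100a9, Lcn2 and Hdc stay filled in AcB61 under all 4 choices.

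Whether the 4 genes varied together from array to array was tested within AcB61, over 8 arrays and 6 pairs. The permutations treat the 8 arrays as interchangeable, which the sets that stood apart put in doubt, so their p-values may be too small. Lcn2 and Hdc ran against each other, with a Pearson r of -0.819 (exact permutation p = 0.0154, adjusted over the 6 pairs 0.0923) and a Spearman rho of -0.762 (exact permutation p = 0.0368, adjusted 0.221). Neither passed after adjustment. Without replicates 2 and 8, the arrays farthest from the median of Lcn2, r was -0.859 (exact permutation p = 0.0417). Replicate 6, of the same set, was kept there. The arrays with high Lcn2 and low Hdc were replicates 2, 6 and 8, so the relation follows the sets of arrays that stood apart, and 3 arrays in a set are too few to test it within one.

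S100a9 and Lcn2 had an r of 0.523 (exact permutation p = 0.181, adjusted 0.329) and a rho of 0.571 (exact permutation p = 0.151, adjusted 0.227). Replicate 8, high for Lcn2 at 1.57 and not for S100a9 at 0.82, weighed on this pair, and without it r was 0.873. Without replicates 2 and 6, however, r was 0.150 (exact permutation p = 0.749), so that the relation was not stable. S100a9 and Hdc had an r of -0.551 (exact permutation p = 0.160, adjusted 0.329) and a rho of -0.571 (exact permutation p = 0.151, adjusted 0.227), and r was 0.0428 without replicates 2 and 6.

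The pairs with Ltf showed less. S100a9 and Ltf had an r of 0.201 (exact permutation p = 0.619, adjusted 0.619), a rho of 0.405 (exact permutation p = 0.327, adjusted 0.327) and an r of -0.0897 without replicates 2 and 6. Lcn2 and Ltf had an r of 0.388 (exact permutation p = 0.327, adjusted 0.393), a rho of 0.452 (exact permutation p = 0.267, adjusted 0.321) and an r of 0.171 without replicates 2 and 8. Ltf and Hdc had an r of -0.491 (exact permutation p = 0.219, adjusted 0.329), a rho of -0.571 (exact permutation p = 0.151, adjusted 0.227) and an r of -0.213 without replicates 5 and 7. In AcB55 the arrays form 2 high and 4 low ones for S100a9, Lcn2 and Ltf, so no r over the 6 arrays or over all 14 was tested.

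**Figure D4:**
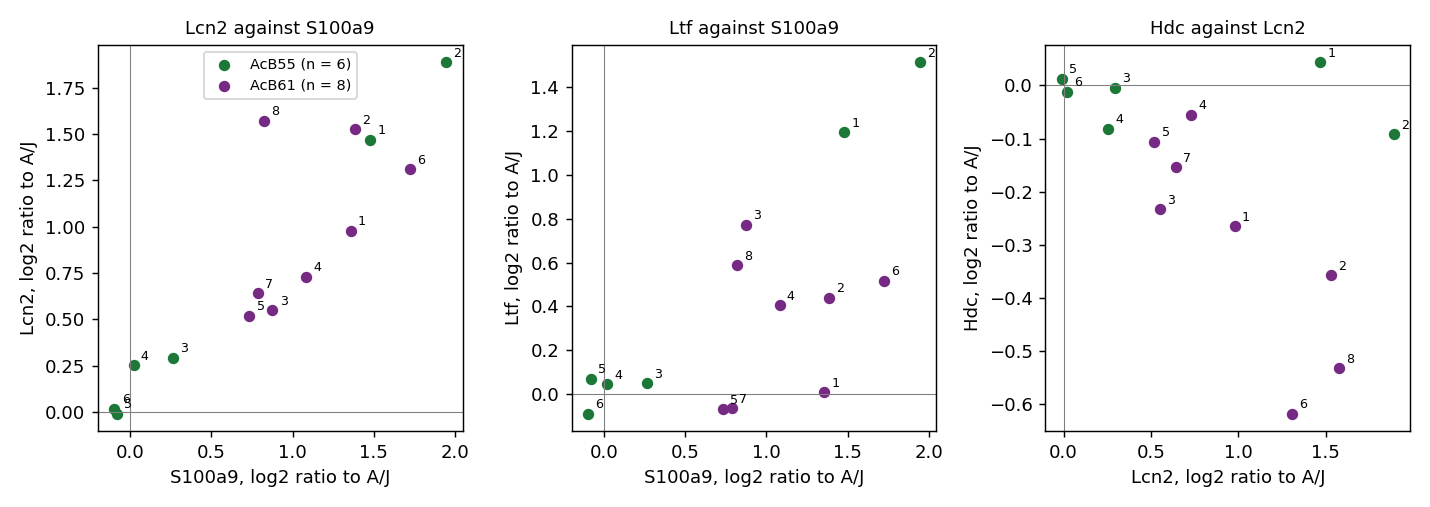
Log2 ratio to A/J of Lcn2 against S100a9, of Ltf against S100a9 and of Hdc against Lcn2, each point an array numbered by replicate (AcB55 green, n = 6; AcB61 purple, n = 8); the scales differ between panels. AcB55 replicates 1 and 2 lie apart from replicates 3 to 6 in the first 2 panels, and in AcB61 Hdc is lowest on replicates 2, 6 and 8, where Lcn2 is highest.

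The genes whose ratios followed each of the 4 most closely are given as a description, among 5797 genes with a value on all 14 arrays, each strain centred on its own mean. For S100a9 the highest r was that of Mgst3 (0.939), a microsomal glutathione transferase, before Ttll4 (0.886) and Cnppd1 (0.881), and Lcn2 had an r of 0.881 with it and Ltf 0.827. For Lcn2 it was Gtpbp2 (0.950), then Golph3l (0.923) and the fatty acid ligase Acsl5 (0.907), and for Ltf it was Cnppd1 (0.944). For Hdc it was Armc5 (0.947), then Zfp105 and Rgl2 (0.911). These coefficients share the arrays and lean on the 2 high AcB55 arrays for S100a9, Lcn2 and Ltf. Mgst3 itself read 0.57 ± 0.29 in AcB55 and 0.85 ± 0.16 in AcB61 and was higher than A/J in both.

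Within a strain, other genes came first. Over the 8 AcB61 arrays the closest were Flvcr1 (r = 0.958) and 4933427D06Rik (0.958) for S100a9, Atp13a3 (0.998) and Tmem33 (0.995) for Lcn2, Nubp2 (0.940) for Ltf, and Plekha6 (0.985) and Snrnp48 (0.977) for Hdc. Tmem33, at 0.25 ± 0.39 in AcB61 (limma adjusted p = 0.0698), and Atp13a3, at 0.14 ± 0.20 (0.0996), split by the same sets of AcB61 arrays as Lcn2 did. Over the 6 AcB55 arrays S100a9 and Lcn2 were each other's closest gene (r = 0.997). Outside the 4 genes, Kpna2 and the haem synthesis enzyme Urod (both 0.996) came first for S100a9, and Efhd2 and Brca2 (both 0.995) for Lcn2. For Ltf it was Idh3b (1.00) and for Hdc Irx3 (0.968). For S100a9, Lcn2 and Ltf such an r sets 2 high arrays against 4 low ones. Hdc, whose AcB55 values span 0.14, follows Irx3 over values of little spread.

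Other genes of neutrophils and their granules moved in both directions. Of a list of 65 such genes, 12 were tested. In AcB55, where 9.77% of all features were called higher and 10.9% lower, 2 were called higher, 4 lower and 6 were not called (median -0.058, beside -0.0019 for all features), and in AcB61, where these shares were 10.5% and 13.3%, 2 were higher, 3 lower and 7 not called (median -0.045, beside -0.00067). Without AcB55 replicates 1 and 2 the AcB55 counts were 0 higher and 3 lower, and the AcB61 counts 3 and 3. The AcB61 counts were 1 and 1 without AcB61 replicates 2, 6 and 8, and 3 and 3 without replicates 3, 5 and 7. S100a8, Ngp, Camp, Mpo, Elane and Csf3r, which would name a neutrophil most directly, were not analysed here. The mean of the 12 genes lay between -0.32 and 0.043 on the AcB55 arrays and between -0.044 and 0.076 on the AcB61 arrays.

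Cd177, a surface protein of neutrophils, read 1.01 and 0.75 on AcB55 replicates 1 and 2 and 0.056 to 0.35 on replicates 3 to 6. It was higher in AcB55 (0.42 ± 0.38, limma adjusted p = 0.00454), was not called in AcB61 (-0.049 ± 0.15, 0.755) and differed between the strains (-0.47, 0.0262). Without AcB55 replicates 1 and 2 its AcB55 mean of 0.19 was not called (limma adjusted p = 0.102), nor was the difference (-0.24, 0.0918), and the difference was also not called without replicate 2 alone (0.0538) or without AcB61 replicates 2, 6 and 8 (0.0724). Anxa1, annexin A1, a protein abundant in neutrophils, read 0.81 and 1.21 on AcB55 replicates 1 and 2, and -0.099 to 0.28 on replicates 3 to 6. It was higher in both strains (0.39 ± 0.51, limma adjusted p = 0.0403, and 0.40 ± 0.20, 0.0127).

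The Anxa1 call in AcB55 was lost without replicate 1, 2 or 3 (limma adjusted p = 0.151, 0.179 and 0.0625) and without AcB61 replicate 1 (0.0501). Its call in AcB61 was lost without replicates 2, 6 and 8 (0.0677) or without replicates 3, 5 and 7 (0.0681). Cyba, a subunit of the phagocyte oxidase, fell in both strains (-0.67 ± 0.18, limma adjusted p = 6.57e-05, and -0.52 ± 0.31, 0.000229). Selplg, the ligand through which leukocytes bind selectins, fell too (-0.68 ± 0.24 and -0.23 ± 0.13), though its call in AcB61 was lost without replicates 2, 6 and 8 (limma adjusted p = 0.0626) or 3, 5 and 7 (0.0952). Lyz2, the lysozyme of neutrophils and macrophages, fell (-0.20 ± 0.13 and -0.20 ± 0.16, limma adjusted p = 0.0287 and 0.0123), a call that was lost in AcB55 without any one of replicates 1, 4, 5 and 6 and in AcB61 without replicates 2, 6 and 8.

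Serpinb1a, an inhibitor of neutrophil proteases, fell in AcB55 (-0.60 ± 0.32, limma adjusted p = 0.000371) and read -0.22 ± 0.26 in AcB61 (0.0887), where it passed without replicate 5 (0.0358) or replicates 3, 5 and 7 (-0.37, 0.0123). Cd24a, a surface protein of granulocytes, B cells and red cell precursors, rose in AcB61 (0.77 ± 0.36, limma adjusted p = 1.20e-05), read 0.061 ± 0.13 in AcB55 (0.765) and differed between the strains by 0.71 (0.00402). Clec4d, Clec4e, Stfa1, Pygl and Alox5ap were called in neither strain. The 12 genes thus held a pair, Cd177 and Anxa1, with the same 2 high AcB55 arrays, beside others that were lower in both strains.

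**Figure D5:**
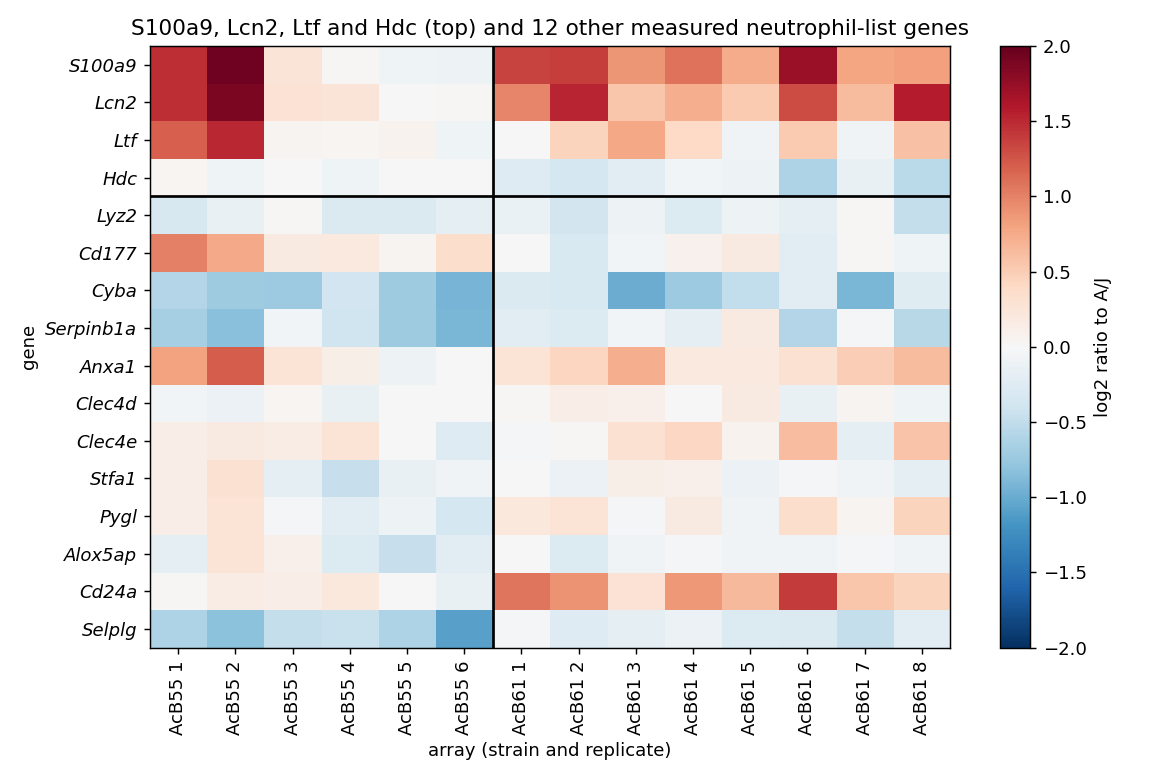
Log2 ratio to A/J by colour (red above 0, blue below 0, white at 0) of S100a9, Lcn2, Ltf and Hdc (top 4 lines) and of the 12 tested genes of the neutrophil list, on the 6 AcB55 and 8 AcB61 arrays. AcB55 replicates 1 and 2 are red for S100a9, Lcn2, Ltf, Cd177 and Anxa1, while Cyba is blue on all 14 arrays.

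Around Hdc, other genes of mast cells and basophils were few. Of 33 listed genes 5 were tested, 1 was called higher in AcB55, and in AcB61 limma called 0 and 0 had an unadjusted p under 0.05. The share over all features was 20.7% in AcB55 and 23.8% in AcB61, so that 1 of 5 is near it. Fcer1g, the signalling chain of the IgE receptor, also present in other myeloid cells, was higher in AcB55 (0.40 ± 0.099, limma adjusted p = 0.00889), read -0.11 ± 0.37 (n = 7) in AcB61 (0.448) and differed between the strains (-0.51, 0.0247). Without AcB55 replicates 1 and 2 neither its AcB55 mean (0.34, limma adjusted p = 0.0937) nor its difference (-0.46, 0.0754) was called. Without AcB61 replicates 2, 6 and 8 it was lower in AcB61 (-0.39, limma adjusted p = 0.00123). Kit, the stem cell factor receptor, and Gata2 read between -0.029 and 0.035 in both strains, and Cpa3 and the eosinophil gene Prg2 were not analysed here.

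Of 15 genes of the histamine pathway 2 were tested. Hars, a histidyl-tRNA synthetase that uses the same amino acid as histidine decarboxylase, rose in AcB61 (0.53 ± 0.23, limma adjusted p = 2.99e-05), read 0.16 ± 0.17 in AcB55 and differed between the strains by 0.37 (0.0287). That difference was not called without any one of AcB55 replicates 3 to 6 (limma adjusted p = 0.0557 to 0.0766) or without AcB61 replicates 2, 6 and 8 (0.0945). Maoa was called in neither strain.

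With all arrays, the tested S100 relatives of S100a9 were lower or not called. Of 14 listed genes 4 were tested, and 2 were lower and 0 higher in each strain, beside 10.9% of all features lower in AcB55 and 13.3% in AcB61. S100a6, calcyclin, read -0.46 ± 0.23 in AcB55 (limma adjusted p = 0.000345) and -0.29 ± 0.19 in AcB61 (0.00505), the latter not called without replicates 3, 5 and 7 (0.0847). S100a13 read -0.56 ± 0.13 in AcB55 (limma adjusted p = 5.35e-07) and -0.19 ± 0.052 in AcB61 (0.00304) and differed between the strains (0.37, 0.00232). S100a10, at 0.33 ± 0.30 in AcB55 (limma adjusted p = 0.110) and 0.28 ± 0.46 in AcB61 (0.109), was called in neither strain, nor was S100g. Without AcB61 replicates 2, 6 and 8, 1 listed gene was called higher in AcB61. Without AcB61 replicates 3, 5 and 7, 1 was called higher in AcB55.

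On chromosome 3, S100a6 and S100a13 are the nearest measured genes on one side of S100a9 in gene order. Of the 10 nearest measured genes, 5 on each side, 1 was higher and 2 were lower in AcB55, and 1 was higher and 3 were lower in AcB61. The 10 neighbours of Lcn2 on chromosome 2 held 0 higher and 3 lower in AcB55 and 2 of each in AcB61. Those of Ltf on chromosome 9 held 0 higher and 4 lower in AcB55 and 2 of each in AcB61. Over all features 20.7% were called in AcB55 and 23.8% in AcB61, so that the counts around S100a9, Lcn2 and Ltf are read as no more than a description. The 10 neighbours of Hdc, also on chromosome 2, held 3 higher and 0 lower in each strain. That is near the share called in either direction, while 9.77% of all features in AcB55 and 10.5% in AcB61 were higher. It too is only a description. Among those higher in AcB61 was the deubiquitinase Usp8, at 1.10 ± 0.52 (limma adjusted p = 1.64e-05), while Hdc itself was lower.

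Lcn2 and Ltf bind iron or its carriers, and 11 of 31 other genes of iron binding and handling were tested. In AcB55, 2 were higher and 0 lower, and in AcB61, 3 were higher and 0 lower (medians 0.021 and 0.047). These counts are near the 20.7% and 23.8% of all features called in either direction, while 9.77% and 10.5% were called higher. Tfrc, the transferrin receptor, rose in both (0.67 ± 0.20 and 0.64 ± 0.20). Hmox1, which breaks down haem, rose in AcB55 (0.88 ± 0.27, n = 5, limma adjusted p = 1.46e-05) and differed between the strains (-0.79, 0.00209), and the ferritin chains Fth1 (0.25 ± 0.22) and Ftl1 (0.17 ± 0.065) rose in AcB61. Slc22a17, a receptor for lipocalin 2, was called in neither strain (0.030 ± 0.16 and 0.096 ± 0.091).

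Listed genes of the signals through which S100a9 acts or granulocytes are made were lower where they were called. The listed receptors Tlr2, Tlr4, Ager, Cd36 and Csf3r were not among those tested. Of 35 listed genes 9 were tested: 7 were lower and 0 higher in AcB55 (median -0.31), and 5 were lower and 0 higher in AcB61 (median -0.15). Over all features 10.9% and 13.3% were called lower, with medians of -0.0019 and -0.00067. Nfkbia, which both restrains NF-kappa-B and is one of its targets, read -1.04 ± 0.19 and -0.87 ± 0.30. Cxcl12, which holds granulocytes in the marrow, read -0.75 ± 0.18 and -0.70 ± 0.31, and Stat3, which carries the signal of the granulocyte growth factor, -0.48 ± 0.15 and -0.37 ± 0.25. Myd88, an adaptor of the toll-like receptors to which S100a9 binds, was lower in AcB61 (-0.20 ± 0.15, limma adjusted p = 0.0134), a call lost without replicates 3, 5 and 7 (-0.11, 0.218), and read -0.089 ± 0.15 in AcB55 (0.382).

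Markers of other cells varied over the same arrays, and their counts stand beside 20.7% of all features called in AcB55 (9.77% higher, 10.9% lower) and 23.8% in AcB61 (10.5% higher, 13.3% lower). Of 27 genes of monocytes and macrophages, which also make Lcn2, 11 were tested, and 1 was higher and 6 were lower in AcB55 and 2 were higher and 4 lower in AcB61. Their mean lay between -0.25 and -0.12 on AcB55 arrays and between -0.23 and -0.035 on AcB61 arrays. Of 37 genes of red cell precursors 18 were tested. In each strain 15 were higher, and 1, Ermap, was lower in AcB55 and 0 in AcB61. Their mean was 0.74 and 0.68 on AcB55 replicates 1 and 2, 0.38 to 0.56 on replicates 3 to 6, and 0.52 to 0.73 on AcB61 arrays. The mean of 27 cell cycle genes was 0.79 and 0.77 on AcB55 replicates 1 and 2 and 0.46 to 0.60 on the others. Cpa1, the single measured gene of the exocrine pancreas, read 2.37 on AcB55 replicate 1, had no value on replicate 2 and read -3.58 to -1.19 on replicates 3 to 6. Of the other lists, both measured B cell genes were lower in each strain, as were 7 of 10 genes of stroma, vessels and fat, with 1 of the 10 higher in AcB61. Of 4 plasma cell genes 2 were lower in AcB55 and 1 in AcB61, and of 3 platelet genes 1 and 2, and the single T cell gene was lower in AcB55 and not called in AcB61. Without AcB55 replicates 1 and 2, the AcB55 counts were 1 higher and 3 lower for macrophages and 11 higher and 0 lower for red cell precursors. For stroma they were 0 higher and 3 lower, the T cell gene was not called, and both B cell genes stayed lower. The AcB61 macrophage counts were 2 higher and 4 lower without replicates 2, 6 and 8, and 0 and 5 without replicates 3, 5 and 7. No eosinophil gene was tested. The part of these in the values of S100a9, Lcn2 and Ltf was not tested.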

How the data were processed

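Spleen RNA of 6 AcB55 and 8 AcB61 arrays was measured against A/J spleen RNA. Per the labels' protocols, RNA was extracted with TRIzol, labelled with Cy3 or Cy5 and scanned with a ScanArray scanner, and images were quantified with QuantArray 3.0 and imported into GeneSpring. The deposited table holds log2 ratios, by its values: decimals of both signs with array medians of -0.0205 to 0.0087. Dye per channel, log base, centring and normalization are not given in the sources used here. In the labels the protocol stops mid-word after mentioning a dye swap. Base 2 was taken, and another base scales every value by a common factor. Signal strengths were not used here.

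The table lists 15247 features, 14612 of them with a value, 12970 on all arrays, and 14197 to 14588 per array. Of the measured probes, 7849 had 1 gene symbol in the platform annotation, 356 several and 6407 none listed, and 7830 gene identifiers matched the RefSeq gene table, with 0 symbols updated. Probes of a gene were averaged. Features with at least 3 arrays of each strain were tested (13045), with values as deposited, no covariate and 1 mean per strain, by limma 3.58.1 (lmFit, eBayes) in R 4.3.3. Tests are two-sided and adjusted by Benjamini and Hochberg over all features, with a threshold of 0.05. Exact sign-flip and strain-label permutations were run in R, and pairing permutations in Python 3.11.15 with numpy 2.4.6. Ranks and the adjustment over pairs of genes used scipy 1.17.1. The fit was tested on simulated data with noise drawn independently for each array and the same SD in both strains. That does not show how it behaves with sets of arrays that vary together, or with unequal spread.

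The 4 genes, the 16 lists, the alternatives and the rule for named genes were chosen with earlier results of these data known. The rule names the 4 genes, for each the 5 most alike genes outside the 4 (of which the text gives the first few), up to 4 called genes of each list and stated markers. Listed genes were named one by one only for lists on granulocytes, histamine, S100 proteins, iron, their signals and macrophages. Genes named beyond it (Cpa1, Ermap, Usp8, Kit, Gata2, Maoa, Slc22a17 and the uncalled list members) were chosen after their values were seen. Alternatives covered centring, scaling, array weights, robust fits, filters, probe summaries and left-out arrays.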

Additional observations from a re-analysis of the deposited data

Results flagged for a closer look

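Among 82 named genes, 10 differed between the strains, a share near the 12.3% of all features that did. In 3 of 164 groups of arrays a single array lay far from the others, where chance alone marks about 1 in 20 such groups. None of the 4 granulocyte genes was among the 10 or held such an array.

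The differences, as AcB61 minus AcB55 on the log2 scale, passed limma's test adjusted over all features. Among granulocyte and related genes they were -0.47 for Cd177, 0.71 for Cd24a, 0.44 for Selplg, -0.51 for Fcer1g, 0.37 for Hars, 0.37 for S100a13 and -0.79 for Hmox1. Among genes whose ratios followed S100a9, Lcn2 or Hdc they were -0.33 for 4933427D06Rik, -0.36 for Brca2 and 0.24 for Snrnp48. S100a13 and Selplg were called lower than A/J in both strains and lay further below it in AcB55. The differences of Cd177, Fcer1g, Hars and Brca2 were lost when some arrays were left out. For Brca2 that was the fit without AcB55 replicates 1 and 2 (-0.28, limma adjusted p = 0.0527).

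Single arrays that lay apart within their strain were AcB55 replicate 1 for Rgl2 (-0.096, the other arrays down to -0.33), AcB55 replicate 3 for Snrnp48 (-0.084, the others down to -0.28) and AcB55 replicate 5 for Tmem33 (-0.35, the others up to 0.076).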

How the results depend on the processing

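The calls of S100a9, Lcn2 and Hdc in AcB61 held in 28 of 28 alternatives each, several of which could not change the AcB61 means. No value of the 4 genes past the threshold changed sign. Robust regression ended the call of Lcn2 in AcB55 (0.58, limma adjusted p = 0.105) and added differences of S100a9 (0.76, 0.0425) and Hdc (-0.23, 0.0240). Array weights added that of S100a9 (0.75, 0.0361), and scaling the arrays that of Hdc (-0.25, 0.0380). Fitting each strain alone ended Lcn2 in AcB55 (0.65, 0.0589) and added Ltf in AcB61 (0.32, 0.0355). S100a9 (0.59), Lcn2 (0.65) and Ltf (0.46) in AcB55 and Ltf in AcB61 (0.32), of which only Lcn2 was called after adjustment, had an unadjusted p under 0.05 in limma and above it by exact sign-flip tests. Without AcB55 replicates 1 and 2, Lcn2 in AcB55 (0.14) was lost, and Ltf in AcB61 (0.32) and the differences of S100a9 (1.07) and Lcn2 (0.84) were added. Without the AcB55 arrays whose titles end in b, Ltf in AcB55 passed (0.67), as did the Hdc difference without AcB61 replicates 3, 5 and 7 (-0.34), a set added after seeing the data.

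Leaving out each array in turn gave AcB55 means of 0.32 to 0.73 for S100a9, 0.41 to 0.78 for Lcn2 and 0.25 to 0.57 for Ltf, and differences of 0.37 to 0.78 for S100a9 and -0.30 to -0.22 for Hdc. Over all features 1601 differences between strains were called, against 2545 without AcB61 replicates 2, 6 and 8 and 2781 without replicates 3, 5 and 7. The causes were not tested. No paired analysis was possible because the labels number no replicates. Correlations between the 4 genes over AcB55 and over all 14 arrays are given only as a description and were not tested. Signal over background was not used here, so its limit is unknown.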
